A study of Mus musculus with 6 samples.

Results

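DNA replication and G1/S genes were examined in mouse inner medullary collecting duct (IMCD) cells, an epithelial model of the kidney collecting duct, that carried either the T173I variant or the wild-type form of integrin-linked kinase (ILK), a scaffold protein of focal adhesions. They form a list of 47, chosen by function, that encode the replicative helicase and its partners, origin licensing factors, the sliding clamp and its loader, the DNA polymerases, enzymes of nucleotide synthesis, and regulators of entry into S phase. Of the 47 genes, 45 had a probe set that the array's annotation gives to that gene alone, out of 22180 such genes on the array. All 45 were among the 13308 genes tested, which were those left after the 40% of genes with the lowest mean signal were set aside. Rfc4 and Ccne2 had no probe set of their own, because the probe set that lists Rfc4 also lists Eif4a2 and the probe set that lists Ccne2 also lists Ints8.

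RNA was measured on 6 Affymetrix whole-transcript arrays, 3 from T173I cells and 3 from wild-type ILK cells. Each group was made by lentiviral transduction with its form of ILK, which the labels describe as overexpressed in both groups. All cells, wild type included, received 15 minutes of EGF (20 ng/ml) and a 1 hour incubation before RNA extraction, so neither the response to EGF nor the effect of transduction is seen in the comparison. The labels do not say how many lines or clones stand behind a group, what promoter drove ILK, or what happened to the cells' own ILK. If a group is 1 line, line and variant cannot be told apart. The labels call the 3 arrays of a group biological replicates, and the p-values measure the spread between these arrays.

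Values are log2 signals as the authors deposited them. A difference is the T173I mean minus the wild-type mean on that scale. Signals of different genes come from different probes and are not compared with each other. The arrays had median signals of 5.45 to 5.52. The T173I arrays were less alike (pairwise Pearson r across genes 0.965 to 0.983) than the wild-type arrays (0.989 to 0.993). The SD of a replication or G1/S gene between arrays had a median of 0.19 in T173I and 0.088 in wild type, against 0.16 and 0.098 over all genes tested. Of 12 markers of collecting duct epithelium, 11 lay above the signal of 5.37 at which genes were set aside, and the mean of the 12 was 8.75 to 8.93 on T173I arrays, against 8.74 to 8.86 in wild type. Cdh1 (E-cadherin), Epcam, Krt8, Krt18 and Pax8 had signals of 9.78 to 11.8, while Cdh16, Pax2 and Hoxb7 were at 7.09 to 9.79. Every T173I array was above wild type for the keratins Krt8 (difference 0.64) and Krt18 (0.44) and for Hoxb7 (0.12). For the transcription factor gene Gata3 every T173I array was below wild type, with a difference of -0.78. The differences of Krt8 and Gata3 were larger in size than that of any replication or G1/S gene, and their part in the results was not tested. The water channel genes Aqp2 (5.97 to 6.25) and Aqp3 (5.04 to 5.48) and the sodium channel subunit Scnn1a (6.22 to 6.30), which mark the principal cell of the collecting duct, were near or below 5.37. By their means, 0 of 4 endothelial, 2 of 6 fibroblast, 2 of 4 proximal tubule and 3 of 4 intercalated cell markers lay above that signal. Of 4 leukocyte markers the only one above it was Cd68, a lysosomal protein, at 8.40, 9.08 and 9.63 on T173I replicates 1, 2 and 3, against 7.47 to 8.26 in wild type. Ptprc, which defines leukocytes, was at 3.55 to 3.81 on all arrays. The mean of the 4 leukocyte markers was 5.43 to 5.81 on T173I arrays, against 5.17 to 5.38 in wild type, and its part in the results was not tested.

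As background, replication origins are licensed in G1 when the origin recognition complex, Cdc6 and Cdt1 load the Mcm2-7 helicase onto DNA. Cyclin D with Cdk4 or Cdk6, and then cyclin E with Cdk2, inactivate the retinoblastoma protein, which frees E2F transcription factors to switch on many of the genes described here. In S phase Cdc45 and the GINS complex activate the helicase, the primase and polymerase alpha start each new strand, the clamp loader places Pcna on the DNA, and polymerases delta and epsilon extend the strands.

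Most of the 45 genes had lower mean signals in T173I cells, by small amounts, and the amounts differed between the T173I arrays. Of the 45 genes, 33 had negative differences, against 52.6% of all genes tested, and their median difference was -0.14, against -0.011 over all genes tested. This was not seen over the 6 arrays in 30 other replication genes outside the list, of which 16 had negative differences, with a median of -0.016. On T173I replicate 2 alone those 30 genes were also low, with a median of -0.16 relative to wild type, against -0.025 over all genes tested. Of 10 other genes of chromatin replication, 8 had negative differences, with a median of -0.087. All 6 subunits of the Mcm2-7 helicase and all 5 measured members of the clamp and clamp loader group had negative differences, of up to -0.35 in each. Tk1, which encodes the thymidine kinase of the DNA precursor salvage pathway, went the other way, with a difference of 0.53, the largest of the 45 in either direction. Of the 5 origin licensing genes, Orc1, Cdc6 and Gmnn had positive differences of 0.15 to 0.21, Orc6 was at 0.0020 and Cdt1 was negative. In bulk RNA, fewer cells in S phase and less RNA per cell cannot be told apart.

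No gene passed an adjusted p of 0.05 in limma's test over all 13308 genes (0 called, 0% of genes tested), so none of the 45 is called changed. Their adjusted p was 0.45 or more. At an unadjusted p under 0.05, 6 of the 45 genes were lower in T173I (13.3%, against 5.31% of all genes tested). They were Mcm2, Mcm5, Mcm7, Rfc3, Pole and Chaf1b. Tk1 was the only one of the 45 that was higher (2.22%, against 4.88% of all genes tested). In 12 of the 45 genes every T173I array lay below every wild-type array (26.7%, against 7.95% of all genes tested), and in 3 every T173I array lay above (6.67%, against 7.23%). The count of 6 was not stable to the choice of arrays. Leaving out T173I replicate 1 gave 17 (37.8%, against 12.3% of all genes tested). Leaving out T173I replicate 2 or 3 gave 1 each (2.22%), against 3.49% and 3.97% of all genes tested, so the share was then below the background. Leaving out wild-type replicate 1 gave 2 (4.44%, against 2.54%), leaving out wild-type replicate 2 gave 1 (2.22%, against 3.05%) and leaving out wild-type replicate 3 gave 0 (against 4% of all genes tested). The count of 12 became 25 when T173I replicate 1 was dropped (55.6%, against 22.1% of all genes tested) and 18 when wild-type replicate 1 was (40%, against 11.1%). The count of 3 became 5 (11.1%) when T173I replicate 2 or wild-type replicate 2 was dropped, against 11.6% and 10.7% of all genes tested, which is close to the background. Dropping T173I replicate 1 gave a median difference of -0.22, and dropping T173I replicate 2 gave -0.049.

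**Figure D1:**
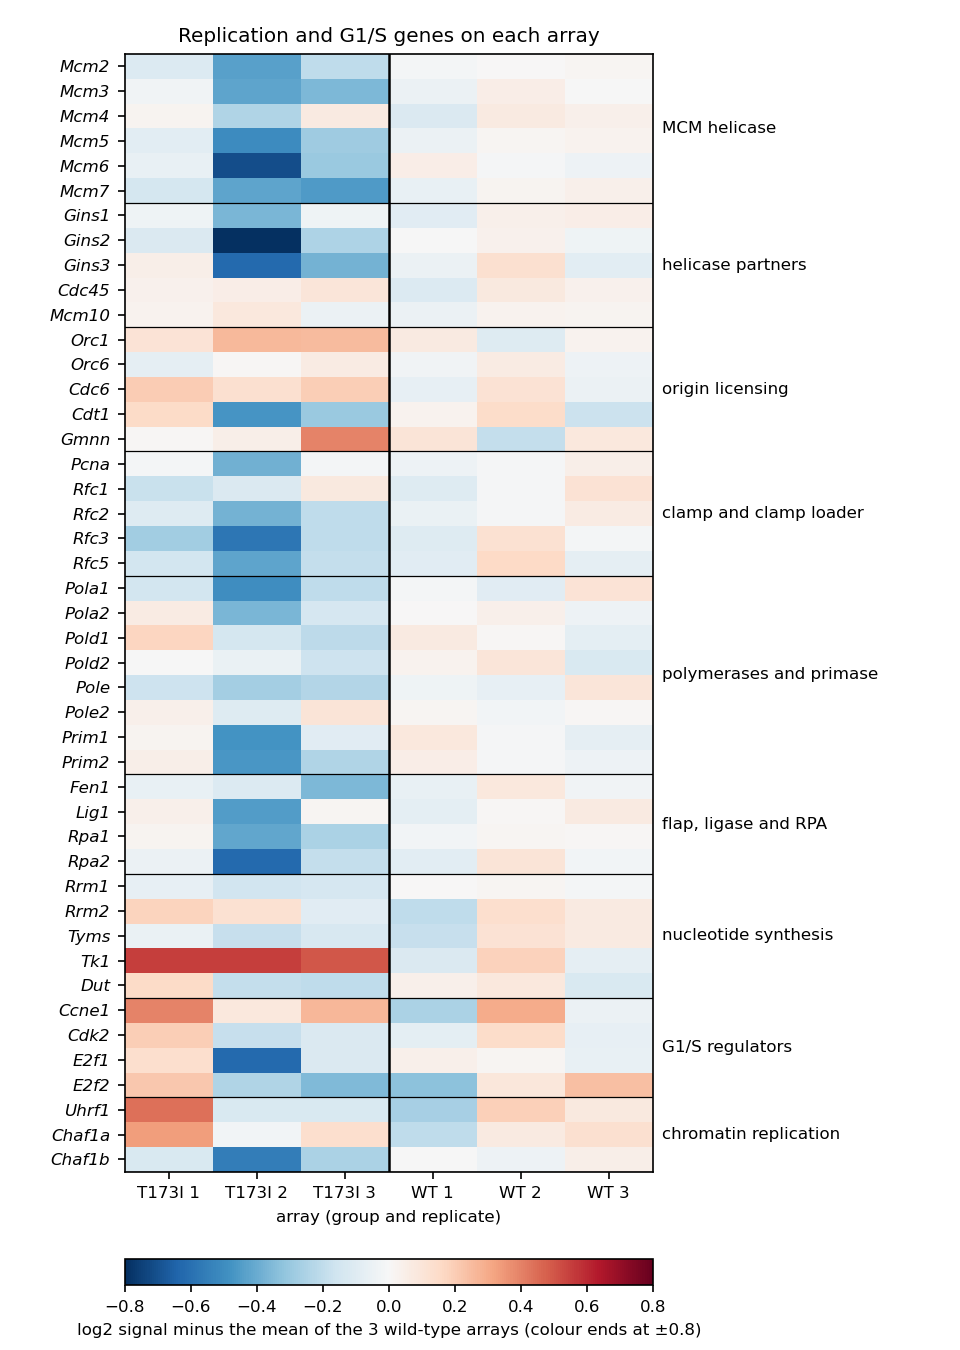
Signal of each of the 45 genes on each array, shown as log2 signal minus the mean of the 3 wild-type arrays, with T173I arrays left of the line and wild-type arrays right of it; genes are grouped by role and colours end at ±0.8. Most helicase, clamp loader and polymerase genes are blue on T173I replicate 2, less so on replicate 3 and close to white on replicate 1, while Tk1 is red on all 3 T173I arrays.

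The T173I arrays did not contribute alike. Relative to the wild-type mean, the 45 genes had medians of 0.020, -0.27 and -0.14 on T173I replicates 1, 2 and 3, against -0.048, 0.038 and 0.0070 on the wild-type arrays. Over all genes tested, the same median was 0.0090, -0.025 and -0.010 on T173I replicates 1, 2 and 3. On T173I replicate 2, 31 of the 45 genes lay below the lowest wild-type array (68.9%, against 39.8% of all genes tested), and 4 lay above the highest (8.89%, against 31.2%). On T173I replicate 3 the counts were 28 below (62.2%, against 33.8%) and 8 above (17.8%, against 29.7%). T173I replicate 1 had 14 genes below (31.1%, against 24.8%) and 15 above (33.3%, against 29.1%), so it was close to the background in both directions. T173I replicate 2 was the lowest of the 6 arrays for 26 genes (57.8%, against 31.4% of all genes tested). Other genes of like signal had smaller medians on that array. Tested genes with mean signals of 8 to 9, 9 to 10, 10 to 11 and 11 to 12 had medians of -0.048, -0.011, -0.029 and -0.023 there.

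**Figure D2:**
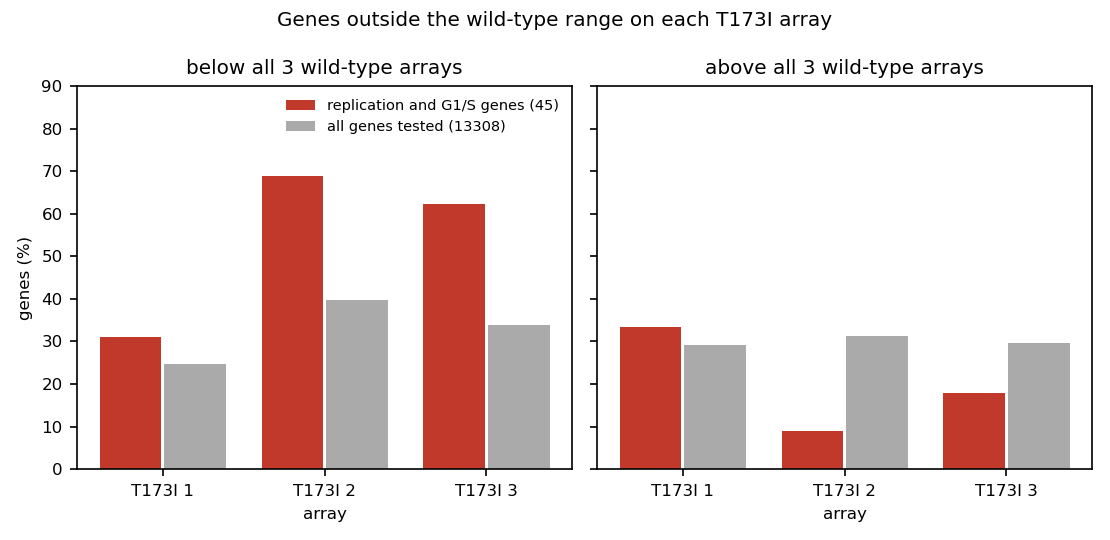
Percentage of the 45 replication and G1/S genes (red) and of all 13308 genes tested (grey) whose signal on a T173I array lay below all 3 wild-type arrays (left) or above all 3 (right). On T173I replicates 2 and 3 the red bars reach 68.9% and 62.2% on the left, against 39.8% and 33.8% for all genes, while on replicate 1 both pairs of bars are close.

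Promoter windows in RefSeq (GRCm38.p6), running from 250 bases before to 50 bases after each gene's start, were available for 39 of the 47 genes, in 46 windows. They were searched on both strands for the E2F letters TTTCCCGC, TTTGGCGC, TTTCGCGC and TTTGCCGC, for CCAAT and for TTTGAA, the core of the cell cycle homology region; matches of the E2F letters may overlap. The E2F letters were found in 16 of the 46 windows (34.8%), 1 window for each of 16 genes, against 2.26% of all 32851 windows and 3.85% of the windows of genes tested. CCAAT was in 58.7% of the windows of the listed genes, against 37.4% of all windows and 37.1% of those of genes tested. TTTGAA was in 13.0%, between the 17.9% of all windows and the 11.7% of those of genes tested. A match describes the letters in the window and does not show that a factor binds there. Windows of 5 genes are printed 5′ to 3′, with the E2F letters of either strand in capitals. Mcm7, Mcm6 and Rfc3 are genes whose T173I arrays all lay below wild type, and each has at least 2 matches. Mcm7 has 2 windows, and the window printed is the one with matches. Cdc6 also has a match, and its T173I arrays all lay above wild type. Tk1, the gene with the largest difference, has none of these letters in its window.
Mcm7, chr5:138171834-138172133, minus strand: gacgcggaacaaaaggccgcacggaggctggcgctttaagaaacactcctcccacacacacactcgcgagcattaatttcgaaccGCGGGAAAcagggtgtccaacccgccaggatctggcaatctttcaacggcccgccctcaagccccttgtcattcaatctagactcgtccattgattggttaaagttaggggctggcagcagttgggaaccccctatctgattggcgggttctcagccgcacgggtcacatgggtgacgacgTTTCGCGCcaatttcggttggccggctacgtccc
Mcm6, chr1:128359656-128359955, minus strand, with 2 matches that overlap on opposite strands and another nearer the start: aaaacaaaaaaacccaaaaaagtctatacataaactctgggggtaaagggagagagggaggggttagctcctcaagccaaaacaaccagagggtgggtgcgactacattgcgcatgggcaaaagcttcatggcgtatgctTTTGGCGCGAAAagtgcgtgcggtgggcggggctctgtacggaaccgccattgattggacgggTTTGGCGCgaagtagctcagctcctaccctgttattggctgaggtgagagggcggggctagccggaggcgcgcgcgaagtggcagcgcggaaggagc
Rfc3, chr5:151651159-151651458, minus strand: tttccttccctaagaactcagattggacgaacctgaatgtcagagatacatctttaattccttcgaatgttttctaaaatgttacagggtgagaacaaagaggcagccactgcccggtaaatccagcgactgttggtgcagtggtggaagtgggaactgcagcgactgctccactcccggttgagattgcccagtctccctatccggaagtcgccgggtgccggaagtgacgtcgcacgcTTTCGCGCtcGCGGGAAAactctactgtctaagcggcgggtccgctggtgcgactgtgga
Cdc6, chr11:98907901-98908200, plus strand: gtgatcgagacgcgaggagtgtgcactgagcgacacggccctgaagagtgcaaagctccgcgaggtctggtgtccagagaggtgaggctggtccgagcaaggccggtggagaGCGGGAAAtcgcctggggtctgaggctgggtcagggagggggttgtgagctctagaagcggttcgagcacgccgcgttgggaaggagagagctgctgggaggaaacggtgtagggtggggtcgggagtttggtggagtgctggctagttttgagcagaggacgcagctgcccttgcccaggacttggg
Tk1, chr11:117825965-117826264, minus strand: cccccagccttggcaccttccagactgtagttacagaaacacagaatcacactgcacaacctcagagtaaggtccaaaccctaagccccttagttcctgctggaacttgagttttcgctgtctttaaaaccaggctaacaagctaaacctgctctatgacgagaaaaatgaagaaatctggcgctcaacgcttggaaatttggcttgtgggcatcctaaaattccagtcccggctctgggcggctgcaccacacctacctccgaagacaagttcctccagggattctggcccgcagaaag

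Genes with and without the letters were found in both directions. Among tested genes with a window, the 16 with E2F letters had a median difference of -0.17, with 12 negative, 5 with every T173I array below wild type and 2 with every T173I array above. The 22 without them had a median of -0.12, with 15 negative, 4 below and 1 above. Over all genes tested, 52.6% were negative, 7.95% had every T173I array below wild type and 7.23% had every T173I array above. The matches lay within 185 bases before the start or 39 bases after it, and in Rfc3 the letters TTTCGCGC stood 10 bases before the start.

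All helicase genes had negative differences. Mcm2 to Mcm7 encode the 6 subunits of the ring that unwinds DNA, with medians of -0.073, -0.43 and -0.29 on T173I replicates 1, 2 and 3, against -0.049, 0.018 and 0.023 on the wild-type arrays. Mcm7 was at 11.50, 11.22 and 11.19 on T173I replicates 1, 2 and 3, against 11.58, 11.66 and 11.68 on wild-type replicates 1, 2 and 3. The groups did not overlap, and the difference was -0.34 with a 95% interval of -0.59 to -0.084 (limma adjusted p = 0.45). Mcm5 was at 11.42, 11.00 and 11.22 on the T173I arrays, against 11.45, 11.52 and 11.53 on the wild-type arrays, and its lowest value was on T173I replicate 2. Its difference was -0.29 (-0.57 to -0.0080). Mcm2 was at 10.75, 10.42 and 10.65, against 10.84, 10.86 and 10.87. The wild-type arrays of Mcm2 lay within an SD of 0.016, while the T173I arrays had an SD of 0.17, and the difference was -0.25 (-0.49 to -0.0040).

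Mcm6 had the largest difference of the ring, -0.35 (-0.75 to 0.038). It was at 11.03, 10.39 and 10.80 on the T173I arrays, against 11.15, 11.08 and 11.05 on the wild-type arrays, so that T173I replicate 1 lay just below the wild-type range and replicate 2 far below it. Mcm3 had a difference of -0.27, with T173I replicate 1 (11.28) inside the wild-type range of 11.26 to 11.36. Mcm4 had the smallest, -0.049, and it was 0.047 without T173I replicate 2. Over the 6 genes the median was -0.28, and -0.18 without T173I replicate 2, when 5 of the 6 were negative.

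**Figure D3:**
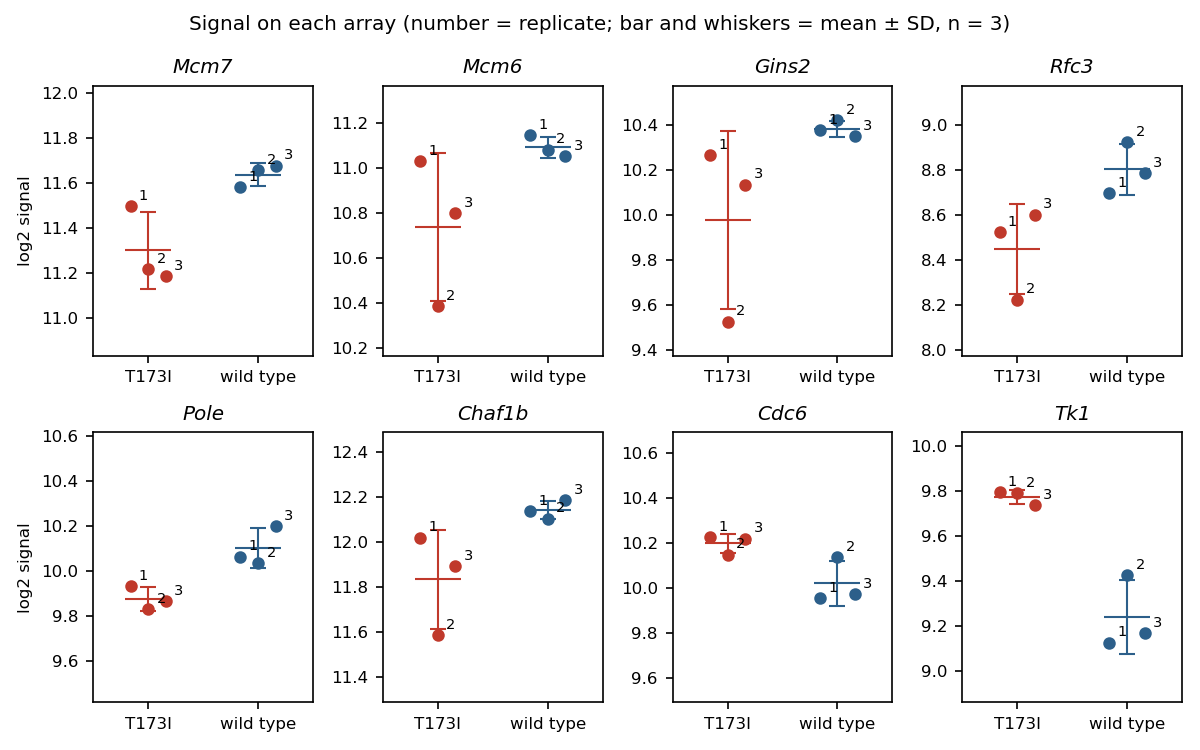
Log2 signal of 8 genes on each array, with T173I (red) left of wild type (blue); numbers give the replicate, and the bar and whiskers give the mean ± SD of 3 arrays. Every panel spans 1.2 log2 units. Mcm7, Mcm6, Gins2, Rfc3, Pole and Chaf1b lie lower in T173I with no overlap, and Cdc6 and Tk1 lie higher with no overlap.

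The partners that turn the loaded ring into a working helicase were split. Genes of the GINS complex had negative differences and Cdc45 and Mcm10 did not. Gins2 was at 10.27, 9.53 and 10.13 on T173I replicates 1, 2 and 3, against 10.38, 10.42 and 10.35 in wild type. All T173I arrays lay below, replicate 2 by the most, and the difference of -0.41 (-0.86 to 0.049) was the most negative of the 45 genes. Gins3 was at 9.56, 8.89 and 9.13, against 9.47, 9.64 and 9.43, with T173I replicate 1 inside the wild-type range. Gins1 was at 8.18, 7.85 and 8.18, against 8.12, 8.25 and 8.26, so that only T173I replicate 2 lay outside the wild-type range. Gins3 and Gins1 had differences of -0.32 and -0.15. Cdc45, which joins GINS on the helicase, had a difference of 0.061 (-0.14 to 0.26), and Mcm10, a scaffold of the early fork, one of 0.021 (-0.16 to 0.21). Over the 5 genes the median was -0.15, and -0.037 without T173I replicate 2.

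Genes that license origins had differences of both signs. Orc1, a subunit of the origin recognition complex, was at 6.94, 7.09 and 7.08 on the T173I arrays, against 6.91, 6.73 and 6.87 on the wild-type arrays. Every T173I array was above wild type, replicate 1 by little, and the difference was 0.21 (-0.0070 to 0.42). Cdc6, the ATPase that loads the helicase, was at 10.23, 10.15 and 10.22, against 9.95, 10.13 and 9.97. It was above wild type on every T173I array, with a difference of 0.18 (-0.025 to 0.38). Cdt1, its partner in loading, was at 10.57, 9.94 and 10.11, against 10.44, 10.56 and 10.24, with T173I replicate 1 just above the wild-type arrays and replicates 2 and 3 below them. Gmnn, which encodes geminin, the inhibitor of Cdt1, had a difference of 0.15, and Orc6 one of 0.0020. The difference of Cdt1 was -0.21 (-0.63 to 0.21), and leaving out T173I replicate 1 gave -0.39 and leaving out T173I replicate 2 gave -0.074. The group's median was 0.15, but 0.028 when T173I replicate 3 was left out and 0.056 when wild-type replicate 2 was.

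Of the 4 measured clamp loader genes, 3 had every T173I array below every wild-type array, against 7.95% of all genes tested. Rfc3 was at 8.53, 8.23 and 8.60 on the T173I arrays, against 8.70, 8.93 and 8.79 on the wild-type arrays. The difference was -0.35 (-0.65 to -0.056), and T173I replicate 3, the highest of its group, was still below wild-type replicate 1. Rfc2 was at 9.59, 9.32 and 9.49, against 9.64, 9.68 and 9.76, and had a difference of -0.23 (-0.46 to 0.0050). Rfc5 was at 9.65, 9.37 and 9.60, against 9.70, 9.95 and 9.72, and had a difference of -0.25 (-0.53 to 0.022). Rfc1, the large subunit, had a difference of -0.071. Pcna, the clamp itself, was low on T173I replicate 2 alone, at 11.68, where the other 5 arrays had 12.02 to 12.11, and its difference was -0.14, or -0.015 without that array. The group's median was -0.23, and it ranged from -0.29 to -0.15 when each array was left out in turn. The probe set shared by Rfc4 and Eif4a2 had a difference of -0.087, which cannot be assigned to either gene.

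**Figure D4:**
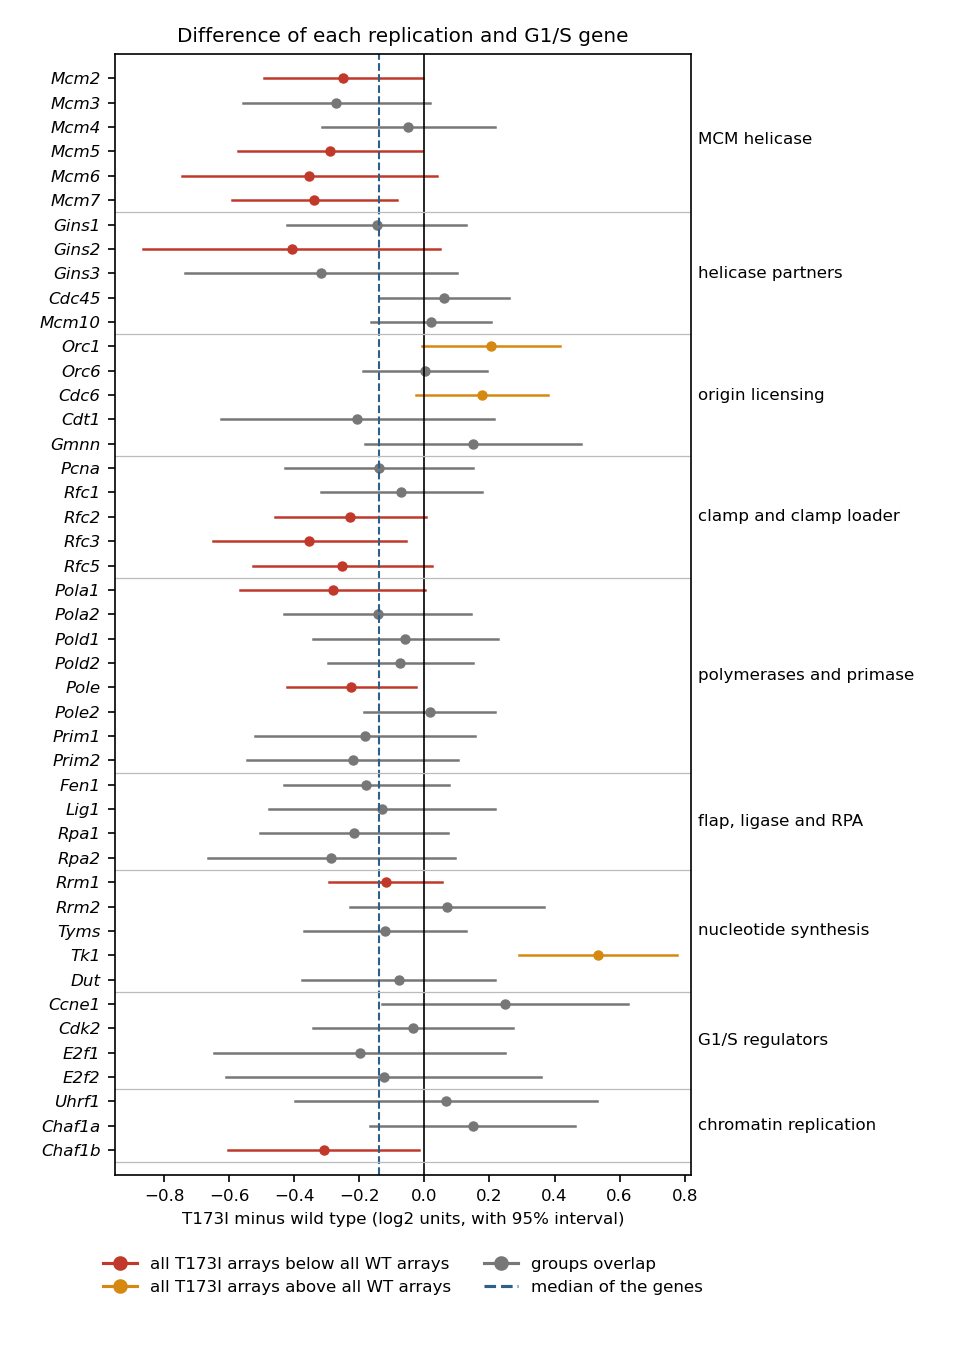
Difference, T173I minus wild type in log2 units, of each of the 45 genes with its 95% interval from limma; red marks genes with every T173I array below every wild-type array, orange those with every T173I array above, and grey those that overlap. The dashed line is the median of -0.14; 12 genes are red and 3 are orange, and the interval of Tk1 lies entirely above 0.

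Polymerase and primase genes had small negative differences in 7 of 8 cases. Pole, the catalytic subunit of the leading-strand polymerase epsilon, was at 9.93, 9.83 and 9.87 on the T173I arrays, against 10.07, 10.04 and 10.20 on the wild-type arrays. Its T173I arrays were close together, with an SD of 0.052, and the difference was -0.22 (-0.42 to -0.026). A fainter second probe set of Pole had a difference of 0.030, at a mean signal of 4.72, below the 5.37 at which genes were set aside. Pola1, the catalytic subunit of polymerase alpha, was at 8.64, 8.29 and 8.59, against 8.77, 8.70 and 8.90, with a difference of -0.28 (-0.57 to 0.0010). Prim2, the large subunit of primase, was at 11.45, 10.94 and 11.16, against 11.46, 11.39 and 11.36. T173I replicate 1 of Prim2 was within the wild-type range, and the difference was -0.22 (-0.54 to 0.10). Prim1, the catalytic subunit of primase, and Pola2, the second subunit of polymerase alpha, had differences of -0.18 and -0.14. Pold1 and Pold2, subunits of the lagging-strand polymerase delta, had -0.058 and -0.074, and Pole2, a subunit of polymerase epsilon, had 0.016. The group's median was -0.16, with -0.25 when T173I replicate 1 was left out and -0.059 when T173I replicate 2 was.

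The genes that process the lagging strand and coat single-stranded DNA all had negative differences, and in none did the groups separate. Rpa2, a subunit of the single-strand binding protein RPA, was at 9.17, 8.59 and 9.03 on the T173I arrays, against 9.13, 9.32 and 9.20 on the wild-type arrays. Its difference was -0.29 (-0.66 to 0.093), with T173I replicate 1 inside the wild-type range. Rpa1, the large RPA subunit, was at 10.27, 9.83 and 9.99, against 10.22, 10.26 and 10.25. T173I replicate 1 of Rpa1 was the highest of the 6 arrays, and the difference was -0.22 (-0.51 to 0.073). Fen1, the flap endonuclease, was at 8.36, 8.30 and 8.05, against 8.36, 8.50 and 8.39, and was the exception in having its lowest value on T173I replicate 3. Its difference was -0.18. Lig1, the replicative ligase, had a difference of -0.13, and 0.027 without T173I replicate 2. The group's median was -0.20, and -0.12 without T173I replicate 2.

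Among the genes of nucleotide synthesis Tk1 stood apart. It was at 9.79, 9.79 and 9.73 on T173I replicates 1, 2 and 3, against 9.12, 9.42 and 9.17 in wild type. All 3 T173I arrays lay above all wild-type arrays, with an SD of 0.033 among them. The difference of 0.53 had a 95% interval of 0.29 to 0.78, a 1.45-fold higher signal (limma adjusted p = 0.45). It was 0.48 to 0.63 when each array was left out in turn. Rrm1, the large subunit of ribonucleotide reductase, was at 11.13, 11.05 and 11.07, against 11.21, 11.22 and 11.18, with no overlap but a difference of only -0.12 (-0.29 to 0.053). Tyms, thymidylate synthase, which makes dTMP by the other route, was at 9.34, 9.21 and 9.26, against 9.20, 9.51 and 9.46. The T173I arrays of Tyms lay inside the wild-type range, and the difference was -0.12 (-0.37 to 0.13). Rrm2, the small subunit of ribonucleotide reductase, had a difference of 0.069, and Dut, the dUTPase, one of -0.079. The fainter second probe set of Rrm2 had a difference of 0.17, and that of Dut had 0.17, opposite in sign to the brighter one. The mean signal of that Dut probe set, 4.95, was below the 5.37 at which genes were set aside.

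Each of the 4 measured G1/S regulators had a difference smaller than the SD of 1 of its groups, and none separated the groups. Ccne1, which encodes cyclin E1, was at 8.50, 8.19 and 8.37 on the T173I arrays, against 7.86, 8.40 and 8.06 on the wild-type arrays. The groups overlapped, and the difference was 0.25 (-0.13 to 0.63). E2f1, an activating E2F factor, was at 7.55, 6.80 and 7.30, against 7.46, 7.43 and 7.36. It was highest on T173I replicate 1 and lowest on T173I replicate 2, and its difference of -0.20 (-0.65 to 0.25) was 0.011 without T173I replicate 2. E2f2 was at 7.16, 6.70 and 6.59, against 6.61, 7.03 and 7.18, with a spread as wide in wild type (SD 0.30) as in T173I (SD 0.30). Cdk2, the kinase partner of cyclin E, had a difference of -0.034. The 4 genes had a median of -0.080, and 0.026 when T173I replicate 2 was left out. The probe set shared by Ccne2 and Ints8 had a difference of 0.11, which cannot be assigned to either gene.

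The chromatin genes had differences of both signs. Chaf1b and Chaf1a are subunits of chromatin assembly factor 1, which deposits histones on new DNA. Chaf1b was at 12.02, 11.59 and 11.89 on the T173I arrays, against 12.14, 12.11 and 12.19 on the wild-type arrays, with no overlap and a difference of -0.31 (-0.60 to -0.016). Chaf1a was at 8.65, 8.30 and 8.45, against 8.12, 8.39 and 8.45. Its groups overlapped and its difference was 0.15 (-0.17 to 0.46), opposite in sign to that of Chaf1b. Uhrf1, which guides maintenance of DNA methylation, was at 10.07, 9.50 and 9.51, against 9.36, 9.82 and 9.70. Only T173I replicate 1 of Uhrf1 was outside the wild-type range, and the difference of 0.066 was -0.12 without that array and -0.067 without wild-type replicate 1. It was also the median of the 3 genes, which turned negative in the same ways.

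Replication genes outside the 47 were close to all genes tested in their median, apart from 10 other genes of chromatin replication. Of 30 tested among 31 other replication genes, 16 had negative differences with a median of -0.016, 2 were lower (6.67%, against 5.31% of all genes tested) and 1 was higher (3.33%, against 4.88%) at an unadjusted p under 0.05, and 0 passed the adjusted threshold in limma's test. Orc5, another subunit of the origin recognition complex, was below wild type on every T173I array, with a difference of -0.25 (-0.46 to -0.049). Chtf8, of an alternative clamp loader, had -0.27 (-0.54 to -0.0050), and Mtbp, a factor in origin firing, had 0.27 (0.010 to 0.53). On T173I replicate 2 the median of these 30 genes was -0.16, against -0.0030 and 0.057 on T173I replicates 1 and 3. Of 10 other genes of chromatin replication 8 were negative, with a median of -0.087 and 0 at an unadjusted p under 0.05. Over all genes tested, 52.6% were negative, with a median of -0.011. Asf1a, Asf1b and Rbbp4, histone chaperones or their partners, had differences of -0.15, -0.26 and -0.21. Of 16 tested genes of nucleotide supply 8 were negative, with a median of -0.016. Among them Dctd, the deaminase that makes dUMP, was above wild type on every T173I array by 0.37 (0.097 to 0.64), as was Samhd1, a dNTP hydrolase, by 0.16 (-0.016 to 0.34). Shmt1, a one-carbon enzyme of thymidylate synthesis, was below on every T173I array, with a difference of -0.24 (-0.45 to -0.024).

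Mitosis genes, read on the same arrays, had a median difference of 0.039, with 5 of 14 negative, and -0.035 on T173I replicate 2. The only one of them at an unadjusted p under 0.05 was Aurka, a mitotic kinase, with a difference of 0.31 (0.051 to 0.57). That is 7.14% of the list higher, against 4.88% of all genes tested. Bub1, a checkpoint kinase, and Tpx2, the activator of Aurka, had 0.16 and 0.13. In these 3 of the 14 genes every T173I array lay above every wild-type array, against 7.23% of all genes tested. In 0 of the 14 every T173I array lay below, against 7.95%. The signals of Ccna2, cyclin A2, and Mki67, a marker of cycling cells, had differences of -0.013 and -0.15; both were chosen after their values were seen.

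Ccnd1 and Ccnd2, cyclins that act upstream of the listed genes in G1, had their highest signals on T173I replicates 2 and 3. These were the arrays on which the median of the 45 genes was lowest. Ccnd1 was at 7.71, 10.76 and 10.10 on T173I replicates 1, 2 and 3, against 6.27, 7.68 and 7.04 in wild type. Ccnd2 was at 4.57, 9.72 and 8.28, against 4.62, 4.72 and 4.46, so that T173I replicate 1 lay within the wild-type range. On the same T173I arrays the 45 genes had medians of 0.020, -0.27 and -0.14. This did not hold for every group on T173I replicate 3. There the origin licensing genes had a median of 0.198 and the 30 other replication genes 0.057, against 0.107 and -0.003 on T173I replicate 1. Nor did it hold among the wild-type arrays. In wild type, Ccnd1 and the median of the 45 genes were both lowest on replicate 1 (median -0.048) and highest on replicate 2 (0.038). Whether cyclin signal and replication gene signal are linked was not tested. All wild-type arrays and T173I replicate 1 were below 5.37 for Ccnd2, which was tested only because of T173I replicates 2 and 3. For that reason no size is given for its difference, and no p for fits that leave out an array. Ccnd1 had a difference of 2.53 (0.64 to 4.42), and over the 6 arrays neither gene passed the adjusted threshold in limma's test. T173I replicate 1 was the T173I array with the lowest signal of both genes. Without it the limma adjusted p was 0.0362 for Ccnd1, a value that depends on having dropped that array. Without any other array the limma adjusted p of Ccnd1 was 0.617 to 0.838. Without T173I replicate 1, none of the 45 replication genes passed (0 of 45, against 1.17% of all genes tested), though 17 were lower at an unadjusted p under 0.05 (37.8%, against 12.3%) and 2 were higher (4.44%, against 9.83%). Ccnd3 was at 8.29, 8.35 and 7.89, against 7.71, 8.09 and 7.83, with a difference of 0.30 (-0.077 to 0.68). Unlike Ccnd1 and Ccnd2, it had its lowest T173I signal on replicate 3.

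**Figure D5:**
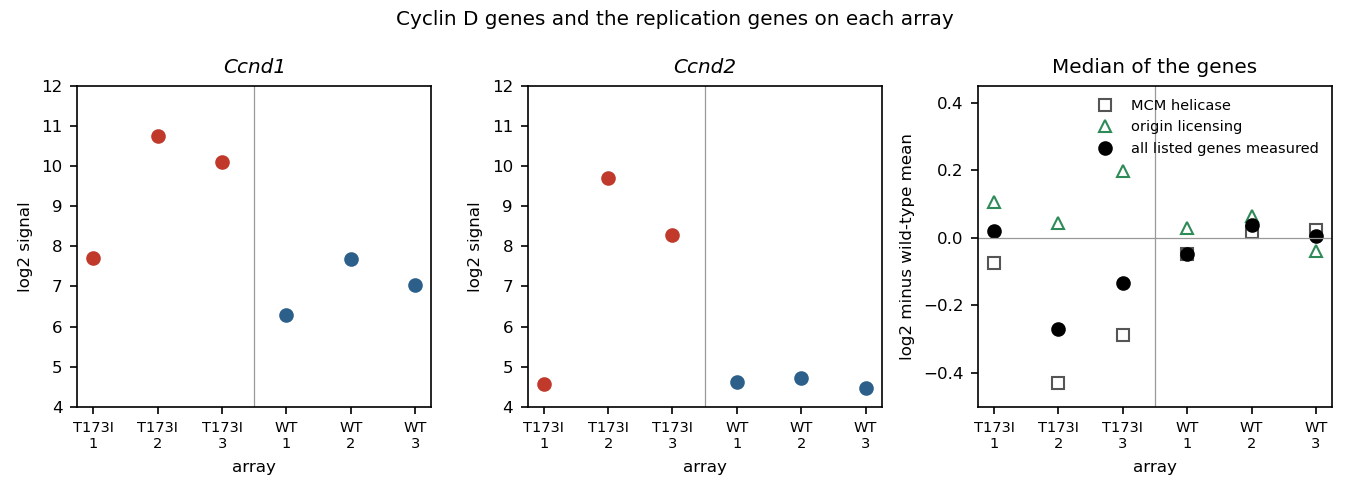
Log2 signal of Ccnd1 and Ccnd2 on each array (left and middle, T173I red and wild type blue), and, on the right, the median over the 45 genes, the Mcm2-7 genes and the origin licensing genes of log2 signal minus the wild-type mean. T173I replicates 2 and 3 have the highest Ccnd1 and Ccnd2 signals and the lowest Mcm2-7 medians, -0.43 and -0.29, while the licensing median is above 0 on all 3 T173I arrays. Ccnd3 is not shown.

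Of 7 inhibitors of cyclin-dependent kinases, 6 had negative differences, against 52.6% of all genes tested. All 7 were below their wild-type mean on T173I replicate 2, by -0.17 to -1.19 in log2 units, and 4 were on T173I replicate 1 and on replicate 3. Relative to the wild-type mean, all genes tested had medians of 0.009, -0.025 and -0.01 on T173I replicates 1, 2 and 3. With medians so small, 4 of 7 is near the background. The share of all genes tested below their wild-type mean was not counted, so 7 of 7 on T173I replicate 2 has no like background. Cdkn2a, Cdkn2b and Cdkn2d had differences of -0.047, -0.070 and -0.079, and Cdkn2c (p18) had -0.48 (-0.98 to 0.015). Cdkn1a (p21) was at 12.36, 11.44 and 12.05 on the T173I arrays, against 11.68, 11.88 and 12.10, and its difference of 0.065 was -0.14 without T173I replicate 1 and -0.039 without wild-type replicate 1. Cdkn1b (p27) was at 9.66, 8.55 and 9.38, against 9.86, 9.62 and 9.74, lowest on T173I replicate 2, with a difference of -0.54 (-1.19 to 0.12). Cdkn1c (p57) was at 5.70, 5.84 and 5.76, against 6.53, 6.43 and 6.49. These T173I signals were near 5.37, the signal at which genes were set aside. All T173I arrays of Cdkn1c lay well below wild type, with a difference of -0.72 (-0.91 to -0.53, limma adjusted p = 0.335), and that adjusted p was 0.0348 without T173I replicate 1 and 0.409 to 0.838 without any other array. E2f4, a repressive E2F factor, was above wild type on every T173I array, with a difference of 0.39 (0.081 to 0.70). Of 29 tested genes of the RB and E2F axis, these cyclins and inhibitors included, 12 had negative and 17 positive differences. At an unadjusted p under 0.05, 1 was lower (3.45%, against 5.31% of all genes tested) and 4 were higher (13.8%, against 4.88%), Ccnd1 and Ccnd2 among them, with 0 past the adjusted threshold in limma's test. Of these, Ccnd2 was tested only because of T173I replicates 2 and 3.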

How the data were processed

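The deposited values are log2 signals of 41345 probe sets on 6 arrays, and the submitters' processing notes name RMA, without its version. RMA makes the arrays' signal distributions alike, which hides a shift shared by most genes. Precision is limited by how many arrays there are. The platform annotation gives 23521 probe sets to exactly 1 gene symbol and 1814 to several, which were not used; 16010 are unnamed here. The brightest probe set by mean stood for each of 22180 genes, and the 13308 with a mean above 5.37 were tested.

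Groups were compared with limma (version 3.58.1, R 4.3.3), lmFit and eBayes over all 6 arrays, no covariate, two-sided, with Benjamini-Hochberg adjustment over the genes tested at a threshold of 0.05; intervals in parentheses are 95% intervals of that fit. The scripts were tested on simulated data. The genes, lists and tests were chosen with earlier results of these data known. Values on every array were given for the 3 genes of each role with the smallest unadjusted p, for D cyclins and Cdkn1a to Cdkn1c, and 3 genes of each other list were named; further genes, such as Mcm6, Mcm3 and Pcna, were chosen after their values were seen. Same-numbered arrays had deviation correlations of 0.049, 0.067 and 0.048 and were not treated as pairs. Alternatives covered the filter, prior, normalization, probe set rule, array weights, replicate block and leaving out each array. Promoter windows were RefSeq's (GRCm38.p6), matched by symbol.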

Additional observations from a re-analysis of the deposited data

How the results depend on the processing

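The median of the 45 genes (-0.14) was negative under every alternative run. It was -0.15 to -0.12 under the alternatives that kept all arrays, but -0.049 without T173I replicate 2 and -0.22 without T173I replicate 1. The number of genes past the adjusted threshold was 0 to 156 when 1 array was left out, 156 without T173I replicate 1, and 0 of the 45 genes passed under any setting. The 6 genes lower at an unadjusted p under 0.05 became 15 with array weights (33.3%, when 11.2% of all genes tested were lower), and 3 (6.67%, against 6%) with the replicate number as a block, although the numbers do not pair the arrays; leaving out arrays gave 0 to 17. The 1 higher gene became 2 with repeated quantile normalization (4.44%, against 4.67% of all genes tested) and 3 with array weights (6.67%, against 10.3%), both below the background, and 1 to 3 when arrays were left out. Counts of genes with every T173I array below wild type were 12 to 25, and above wild type 3 to 5, when arrays were left out, an alternative chosen after seeing the data; fewer arrays make separation easier, and 25 (55.6%) stood against 22.1% of all genes tested.

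The stricter filter on low signal removed Ccnd2 and Cdkn1c, which have no value there. Of 688 alternative values of 46 named genes, 6 turned direction and 3 newly passed the threshold. These 3 were Ccnd1, Ccnd2 and Cdkn1c, all in the fit without T173I replicate 1. The pass of Ccnd2 is not read as a result, because it was tested only because of T173I replicates 2 and 3. Without 1 array, E2f1 ranged from -0.37 to 0.011, Uhrf1 from -0.12 to 0.16 and Cdkn1a from -0.14 to 0.32; array weights gave Uhrf1 -0.086. Over all 45 genes, 35 kept their sign when any array was left out, 28 negative and 7 positive; the 10 that did not were Mcm4, Mcm10, Orc6, Pold1, Pole2, Lig1, Rrm2, Cdk2, E2f1 and Uhrf1. The cause of these changes was not tested.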
